A study of Rattus with 12 samples.

Results

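The 10 microglial identity genes Aif1, Cx3cr1, Itgam, Csf1r, P2ry12, Tmem119, Trem2, Tyrobp, Ptprc and Cd68 were followed through 12 complex cultures of rat brain cells. They were taken by symbol from a count table of 17337 genes, in which all 10 were listed, and all 10 passed the filter on low counts that left 12271 genes. The cultures were primary co-cultures of Sprague Dawley cortical neurons, astrocytes and oligodendrocyte precursor cells (OPCs), and the sources used here give no age or sex of the animals and no deletion or transgene. Cultures A, G, M and P were untreated, cultures B, H, N and Q were given 0.01 μM fentanyl, an opioid receptor agonist (low dose), and cultures C, I, O and R were given 10 μM fentanyl (high dose), each for 4 days. The letters follow one another from dose to dose, so that A-B-C, then G-H-I, then M-N-O and last P-Q-R each hold 1 culture per dose and are called letter sets here, but nothing in the labels says that a set shares a batch, day or animal, or that the 4 cultures of a dose came from separate animals, so p-values measure the spread between these cultures. Cultures P, Q and R are shown apart throughout, because their levels of these genes were already known to be low; that contrast is therefore given as values with no test.

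Microglia are the resident macrophages of the brain and derive from yolk sac precursors, not from the neuroectoderm that gives neurons, astrocytes and OPCs. They depend on signalling through the receptor CSF1R for survival, scan their surroundings with purinergic and chemokine receptors, and clear debris through phagocytic receptors such as TREM2. Most of the 10 genes are also expressed by other macrophages, with P2ry12 and Tmem119 the most restricted to microglia within the brain. Microglia were not among the cell types that the labels name for these cultures. In bulk RNA, fewer cells of a type and less RNA per cell cannot be told apart.

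Levels are given as CPM, the count of a gene relative to the library size after TMM scaling, a correction for differences in library composition. Total counts ranged from 12059872 to 24813893 per culture, and the 10 genes together held between 203 counts (culture P) and 9413 counts (culture N). A count of 3, taken as the floor, equals 0.124 to 0.249 CPM depending on the culture. CPM are not divided by transcript length, so levels were compared between cultures and not between genes. Untreated culture G stood apart in its summed neuronal markers, with 247 CPM over 11 genes against 2971 to 4329 CPM in the other 11 cultures.

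The summed level of the 10 genes was far lower in P-Q-R, the set shown apart for its low levels, than in the other sets. It was 158, 605, 257 and 16.9 CPM in the untreated cultures A, G, M and P, 196, 276, 614 and 22.1 CPM in the low dose cultures B, H, N and Q, and 230.2, 393, 419 and 24.3 CPM in the high dose cultures C, I, O and R. In each dose the lowest culture came from the set P-Q-R, and the doses also overlapped among the other 9 cultures. Outside P-Q-R the cultures of a set also differed, from 276 to 605 CPM in G-H-I and from 257 to 614 CPM in M-N-O. The lowest of the other 9 cultures (A) was 6.50 times the highest of P, Q and R (R). The dose means were 259 ± 251 CPM untreated, 277 ± 249 CPM at the low dose and 266 ± 182 CPM at the high dose (SD, n = 4). With P, Q and R left out they were 340.2 ± 235, 362 ± 222 and 347 ± 102 CPM (SD, n = 3), so that in both cases the means of neighbouring doses lay within 1 SD of each other. Without G the untreated mean was 144 ± 121 CPM (SD, n = 3), below both doses by more than its own SD and by less than the SD of either dose. Without N the low dose mean was 165 ± 130.01 CPM (SD, n = 3).

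**Figure D1:**
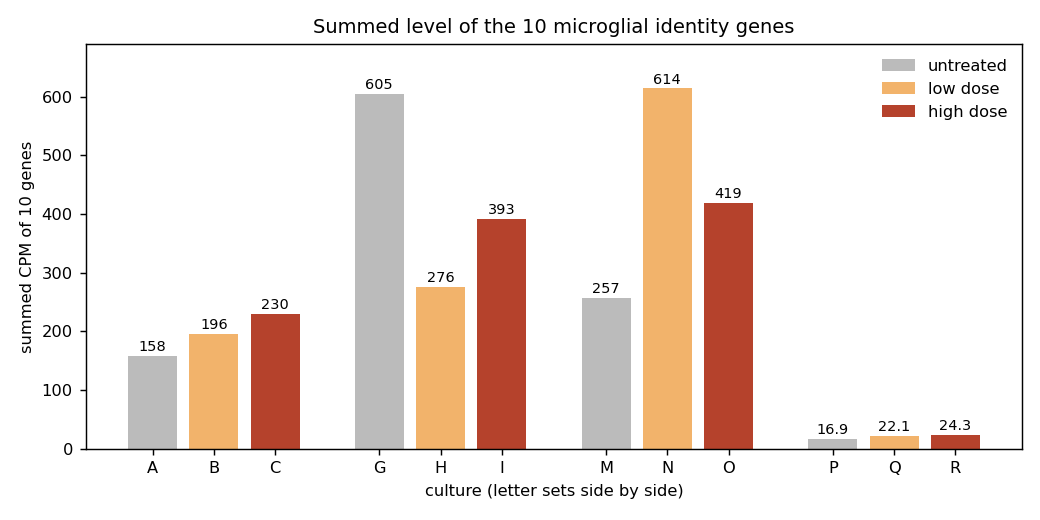
Summed CPM (y axis) of the 10 microglial identity genes in each of the 12 cultures (x axis), grouped by letter set and coloured by dose, with 1 bar per culture. P, Q and R lie at 16.9 to 24.3 CPM and the other 9 cultures at 158 to 614 CPM, with untreated G and low dose N the highest.

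Receptors for a growth factor, a chemokine and a nucleotide were low in P, Q and R, except for P2ry12. Csf1r, the receptor for CSF1 and IL34 on which microglia depend, was at 42.0, 69.0, 88.3 and 5.41 CPM in the untreated cultures A, G, M and P, at 62.2, 101, 184 and 5.92 CPM in the low dose cultures B, H, N and Q, and at 64.4, 137, 126 and 4.22 CPM in the high dose cultures C, I, O and R. All 3 cultures of the set P-Q-R were below the other 9, and the low dose culture N was the highest. The dose means of Csf1r were 51.2 ± 35.9 CPM untreated, 88.5 ± 75.0 CPM at the low dose and 82.9 ± 61.4 CPM at the high dose (SD, n = 4). The levels of its 2 ligands, which other brain cells make, overlapped between P, Q and R and the other 9. Csf1 ranged there from 56.3 to 94.2 CPM, against 51.6 to 272 CPM in the other 9, and Il34 from 18.5 to 28.1 CPM, against 6.49 to 52.5 CPM. Both ligands are named for their tie to Csf1r, a choice made after their values were seen.

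Cx3cr1, the receptor for the neuronal chemokine fractalkine, had levels of 1.53, 0.584, 3.22 and 0.0832 CPM in A, G, M and P (untreated), 3.92, 1.79, 6.13 and 0.0688 CPM in B, H, N and Q (low dose) and 2.90, 2.91, 4.45 and 0 CPM in C, I, O and R (high dose). It was below the floor of 3 counts in the set P-Q-R, with 1 count in P, 1 in Q and 0 in R, and a count of 0 in R allows a level of up to 0.124 CPM. Among the other 9 cultures it was lowest in G, where it had 9 counts, although G had the second highest summed level of the 10 genes. Cx3cl1, which encodes fractalkine, was also lowest in G of all 12 cultures, at 76.3 CPM against 318 to 560 CPM in the other 11. Whether the low neuronal markers of G had a part in either value was not tested. The dose means of Cx3cr1 were 1.36 ± 1.38 CPM untreated, 2.98 ± 2.63 CPM at the low dose and 2.56 ± 1.86 CPM at the high dose (SD, n = 4).

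P2ry12, the ADP receptor that guides microglial processes, was at 0.413, 3.63, 2.61 and 0.915 CPM untreated (A, G, M, P), at 1.08, 2.66, 5.74 and 0.757 CPM at the low dose (B, H, N, Q) and at 1.54, 4.66, 3.48 and 0.744 CPM at the high dose (C, I, O, R). It was the only one of the 10 genes whose levels in P, Q and R overlapped those in the other 9, since untreated culture A, with 7 counts, was below all 3. The counts were 11, 11 and 18 in P, Q and R and 7 to 93 in the other 9, so that these levels rest on few reads. The dose means of P2ry12 were 1.89 ± 1.492 CPM untreated, 2.56 ± 2.28 CPM at the low dose and 2.61 ± 1.79 CPM at the high dose (SD, n = 4).

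Trem2, a receptor for lipids and apolipoproteins on phagocytes, was at 4.96, 32.1, 6.03 and 0.582 CPM in the untreated cultures A, G, M and P, at 5.08, 6.49, 13.2 and 0.825 CPM in the low dose cultures B, H, N and Q, and at 7.70, 6.92, 9.67 and 0.620 CPM in the high dose cultures C, I, O and R. Culture G was the highest by a wide margin, and the remaining cultures outside P-Q-R lay between 4.96 and 13.2 CPM. Tyrobp, which encodes DAP12, the membrane adaptor through which TREM2 signals, had levels of 14.9, 79.8, 21.3 and 1.58 CPM in A, G, M and P (untreated), 19.7, 22.7, 54.8 and 2.13 CPM in B, H, N and Q (low dose) and 24.4, 31.5, 40.4 and 2.32 CPM in C, I, O and R (high dose). Receptor and adaptor ranked the same 2 cultures highest, G before N, and both were lowest in P. The dose means were 10.9 ± 14.3 CPM untreated, 6.39 ± 5.13 CPM at the low dose and 6.23 ± 3.91 CPM at the high dose (SD, n = 4) for Trem2 and 29.4 ± 34.6 CPM untreated, 24.8 ± 22.0 CPM at the low dose and 24.6 ± 16.3 CPM at the high dose (SD, n = 4) for Tyrobp, and without G the untreated means were 3.86 ± 2.89 CPM (SD, n = 3) for Trem2 and 12.6 ± 10.1 CPM (SD, n = 3) for Tyrobp.

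Itgam, the integrin chain CD11b of complement receptor 3, was at 14.8, 38.1, 29.3 and 0.832 CPM untreated (A, G, M, P), at 18.3, 27.6, 69.7 and 1.38 CPM at the low dose (B, H, N, Q) and at 23.6, 45.4, 45.6 and 1.24 CPM at the high dose (C, I, O, R). Ptprc, the phosphatase CD45 of white blood cells and tissue macrophages, was at 7.44, 27.3, 9.39 and 0.499 CPM in the untreated cultures A, G, M and P, at 7.54, 5.93, 19.2 and 0.619 CPM in the low dose cultures B, H, N and Q, and at 9.48, 14.6, 14.4 and 1.16 CPM in the high dose cultures C, I, O and R. Itgam was highest in N and Ptprc in G, and in P, Q and R they were at most at 1.38 CPM and 1.16 CPM. The dose means were 20.8 ± 16.4 CPM untreated, 29.2 ± 29.1 CPM at the low dose and 28.9 ± 21.2 CPM at the high dose (SD, n = 4) for Itgam and 11.2 ± 11.4 CPM untreated, 8.32 ± 7.83 CPM at the low dose and 9.90 ± 6.29 CPM at the high dose (SD, n = 4) for Ptprc, whose untreated mean without G was 5.78 ± 4.67 CPM (SD, n = 3).

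Aif1, which encodes the actin-binding protein IBA1 used to stain microglia, had levels of 14.4, 44.6, 32.0 and 1.497 CPM in A, G, M and P (untreated), 21.5, 41.6, 88.8 and 1.99 CPM in B, H, N and Q (low dose) and 25.2, 58.3, 59.8 and 2.36 CPM in C, I, O and R (high dose). Its 2 highest values were both in the set M-N-O, at the low and the high dose. Tmem119, a membrane protein used to tell microglia from other macrophages, was at 0.944, 17.6, 3.02 and 0.166 CPM untreated (A, G, M, P), at 1.62, 0.927, 10.8 and 0.344 CPM at the low dose (B, H, N, Q) and at 2.13, 2.26, 5.48 and 0.124 CPM at the high dose (C, I, O, R). Untreated G and low dose N were each far above the other 3 cultures of their dose. Summed fibroblast and mural cell markers, with collagen genes the highest, were also highest in these 2 cultures, at 1750.2 CPM in G and 3002 CPM in N against 63.9 to 496 CPM in the other 10, and their part in the Tmem119 levels was not tested. The dose means were 23.1 ± 19.0 CPM untreated, 38.5 ± 37.2 CPM at the low dose and 36.4 ± 27.7 CPM at the high dose (SD, n = 4) for Aif1 and 5.43 ± 8.19 CPM untreated, 3.43 ± 4.96 CPM at the low dose and 2.50 ± 2.22 CPM at the high dose (SD, n = 4) for Tmem119, whose untreated mean without G was 1.38 ± 1.47 CPM (SD, n = 3).

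Cd68, a glycoprotein of phagocyte lysosomes, was at 56.9, 293, 62.0 and 5.32 CPM in the untreated cultures A, G, M and P, at 55.3, 65.3, 162 and 8.05 CPM in the low dose cultures B, H, N and Q, and at 68.8, 89.1, 109.7 and 11.5 CPM in the high dose cultures C, I, O and R. Untreated G was the highest, and without it the 8 remaining cultures outside P-Q-R lay between 55.3 and 162 CPM. The dose means of Cd68 were 104 ± 128 CPM untreated, 72.6 ± 64.4 CPM at the low dose and 69.8 ± 42.3 CPM at the high dose (SD, n = 4), and the untreated mean without G was 41.4 ± 31.3 CPM (SD, n = 3). In order of dose means, the low dose was highest and untreated lowest for Aif1, Cx3cr1, Itgam and Csf1r, the high dose was highest for P2ry12, and untreated was highest for Tmem119, Trem2, Tyrobp, Ptprc and Cd68, where G gave the highest untreated value and the untreated mean was the lowest once G was left out. In each of these orders over all cultures, doses next to each other in rank differed by less than 1 SD of either dose. Doses at the ends of an order could differ by more. Low dose and untreated differed by more than the untreated SD for Csf1r and Cx3cr1. Untreated and high dose differed by more than the high dose SD for Tmem119 and Trem2. The first order rested on N, without which the low dose means were 21.7 ± 19.8 CPM (SD, n = 3) for Aif1, 1.93 ± 1.93 CPM (SD, n = 3) for Cx3cr1, 15.7 ± 13.3 CPM (SD, n = 3) for Itgam and 56.5 ± 48.0 CPM (SD, n = 3) for Csf1r, each below the mean of the high dose and, for Aif1 and Itgam, below that of the untreated cultures.

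**Figure D2:**
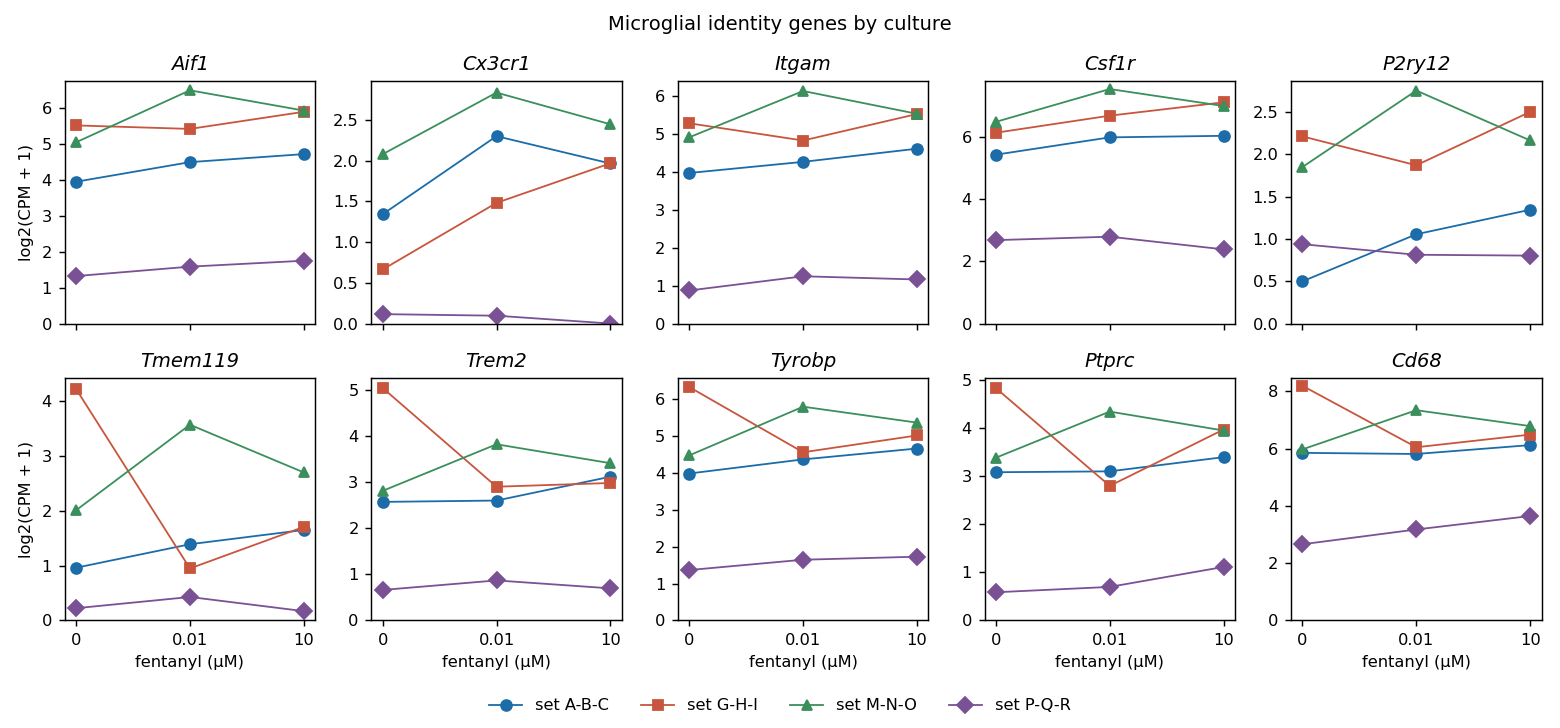
Level of each gene as log2(CPM + 1) (y axis, own scale per panel) against fentanyl dose (x axis, 3 doses at equal steps), with 1 point per culture, and lines joining the cultures of a letter set, which are different cultures. The set P-Q-R lies lowest in all panels but that of P2ry12, and G is the highest untreated point in all panels except those of Cx3cr1 and Csf1r.

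For 9 of the 10 genes all of P, Q and R lay below all of the other 9 cultures, the exception being P2ry12. The same order held in 927 of the 12271 kept genes (7.55%), and the opposite order, with P, Q and R above the other 9, in 879 (7.16%). As these cultures were set apart with their levels of these genes known, the count of 9 is a description. The make-up of the summed counts differed as well, compared between cultures only, since counts are not per length. P2ry12 made up 5.42% of the summed counts of the 10 genes in P (exact 95% interval 2.74 to 9.49), 3.43% in Q (1.72 to 6.05) and 3.06% in R (1.82 to 4.79). In the other 9 cultures its share was between 0.261% (0.105 to 0.537) in A and 1.19% (0.960 to 1.45) in I. As P, Q and R were set apart for their low levels, which make up the sum, these shares are a description. The intervals cover counting error only, and reads are not independent molecules where PCR copies are counted.

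In culture G the make-up differed in other genes. Cd68 held 48.3% of the summed counts (47.3 to 49.4) in G and 22.7% to 35.97% in the other 8 cultures outside P-Q-R. Csf1r held 11.4% (10.8 to 12.1) in G and 26.5% to 36.7% in those 8. Trem2 held 5.30% (4.86 to 5.78) in G and 1.76% to 3.35% in those 8. Cx3cr1 held 0.0964% (0.044 to 0.183) in G and 0.648% to 2.0% in those 8. Cd68 and Trem2 thus took a larger share in G, and Csf1r and Cx3cr1 a smaller share, than in those 8 cultures. Tmem119 (2.90%) and Tyrobp (13.2%) also took a larger share in G than in those 8, and Aif1 (7.37%) and Itgam (6.30%) a smaller share. In R, Cd68 held 47.4% (43.3 to 51.6) and Csf1r 17.3% (14.4 to 20.7), while Trem2 held 2.55% (1.43 to 4.17), within the range of those 8.

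**Figure D3:**
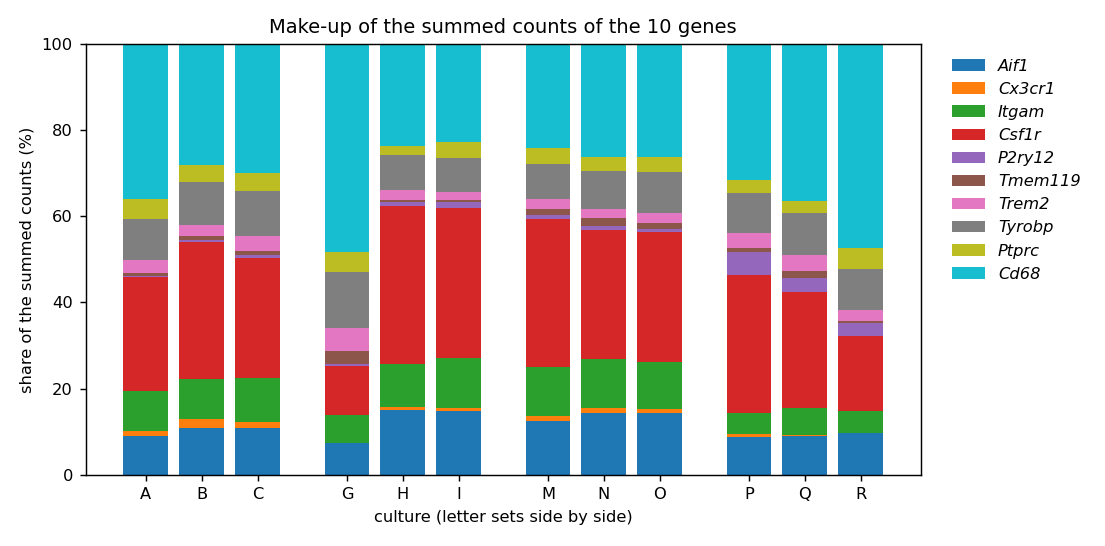
Share of the summed counts of the 10 genes (y axis, percent) held by each gene in each culture (x axis), with 1 stacked bar per culture. Cd68 takes 48.3% in G and 47.4% in R and Csf1r 11.4% in G, while P2ry12 takes 3.06% to 5.42% in P, Q and R and at most 1.19% elsewhere.

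Letter sets and doses were set against each other as sources of variation in log2(CPM + 1). The letter set held a median of 87.2% of the variation over the 12 cultures for the 10 genes, from 59.7% (Tmem119) to 96.7% (Itgam), beside a median of 55.7% for all kept genes. As the sets include P-Q-R, set apart with its low levels of these genes known, the shares over the 12 cultures are a description. Dose held a median of 1.23%, from 0.162% (Tyrobp) to 8.54% (Cx3cr1), beside 8.70% for all kept genes. Without culture G dose held a median of 5.23%, from 4.12% (Csf1r) to 12.4% (P2ry12), beside 7.96% for all kept genes, and the share in Tyrobp was 6.70%, although the shares of set and dose then overlap, as 1 set lacks a dose. Within the 9 cultures outside P-Q-R the set held a median of 44.8% and dose 8.16%, beside 43.3% and 13.7% for all kept genes. Dose held its largest share there in Cx3cr1 (38.5%) and Csf1r (28.8%), and its smallest in Tyrobp (0.419%). Any grouping of so few cultures takes a share of the variation by chance, and more groups take more. The shares are therefore read beside those of all kept genes, and those of single genes are a description.

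The comparison of fentanyl doses asked whether exposure went with a different level of these genes. No gene of the 10 was called between any 2 doses. Fitted log2 fold changes were above 0 for all 10 genes at both doses vs. untreated, with standard errors from 0.68 to 1.29. In low dose vs. untreated cultures the log2 fold changes were 1.19 (SE 1.04) for Aif1, 1.13 (SE 1.29) for Cx3cr1, 1.01 (SE 1.05) for Csf1r and 0.93 (SE 0.68) for P2ry12, and from 0.31 (Ptprc) to 0.89 (Itgam) for the other 6. In high dose vs. untreated cultures they were 1.19 (SE 1.04) for Aif1, 1.03 (SE 0.68) for P2ry12, 0.96 (SE 1.10) for Itgam and 0.95 (SE 1.05) for Csf1r, and from 0.46 (Trem2) to 0.91 (Cx3cr1) for the other 6. Between the high and the low dose they lay between -0.22 (Cx3cr1) and 0.34 (Ptprc), with 6 of 10 above 0.

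The test was the quasi-likelihood test of edgeR with 1 factor of unwanted variation, and calls needed both an adjusted p under 0.05 and a change by over 0.5 on the log2 scale, up or down. By this rule 0 of 12271 genes (0%) were called between low dose and untreated, 0 (0%) between high dose and untreated and 0 (0%) between both doses, and all adjusted p of the 10 genes were 1.0. At an unadjusted p under 0.05 it found none of the 10 genes in any comparison, beside 91 of all genes (0.742%) for the low dose, 146 (1.19%) for the high dose and 144 (1.17%) between the doses. These shares lie below the rate of 0.05 that evenly spread p-values would give, so the test was conservative here. The model has no term for the letter sets, so differences between them can widen its standard errors. The lack of calls therefore does not show that dose left these genes unchanged. DESeq2 called none of the 10 in any comparison, and 0, 3 and 1 of all genes. The authors reported called genes in every comparison with RUVseq and edgeR at the same thresholds. Why their run differs was not tested.

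The direction above 0 depended on how culture G was handled in the fit. The median log2 fold change of the 10 genes was 0.87 at the low dose and 0.85 at the high dose vs. untreated, beside 0.01 and 0.00 over all genes, of which 53.4% and 50.8% were above 0. The factor took a value of 2.96 in G and values from -0.70 to 0.49 in the other 11 cultures, so that it mainly set G apart. With G left out and the factor kept, all 10 genes were above 0 at both doses, with medians of 0.64 and 0.55. Without the factor the medians were 0.10 and 0.14, and 5 of 10 genes were above 0 at each dose, with Tmem119, Trem2, Tyrobp, Ptprc and Cd68 below 0. These 5 are the genes that were highest in G. Other single cultures moved the medians too. Without low dose culture N the low dose median was 0.25 with 8 of 10 genes above 0, and without untreated culture P the medians were 0.43 and 0.32 with 7 and 8 of 10 above 0. Without untreated culture M they were 1.40 and 1.36, without Q the low dose median was 1.21, and without R the high dose median was 1.22, with all 10 genes above 0 in each. With the whole set P-Q-R left out and the factor kept, all 10 genes were above 0 at both doses, with medians of 0.82 and 0.75. Aif1 and Tyrobp, 2 of the 10, then had an unadjusted edgeR p under 0.05 at each dose. So did 181 of 12329 genes at the low dose and 232 at the high dose. None of the 10 was called in that fit.

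When each letter set was fitted as a replicate block in place of the factor, 6 of 10 genes were above 0 at the low dose and 7 of 10 at the high dose vs. untreated, with medians of 0.21 and 0.30. Aif1, Cx3cr1 and Csf1r then had an unadjusted p under 0.05 at the low dose, as did 2.47% of all genes, and Aif1 did at the high dose, as did 3.05%. With the same block and culture G left out, all 10 genes were above 0 at both doses, with medians of 0.69 and 0.79, beside 0.00 and 0.00 over all genes. In that fit 8 of 10 genes had an unadjusted p under 0.05 at the low dose, beside 7.54% of all genes, and 8 of 10 at the high dose, beside 9.43%. None of the 10 passed the adjusted threshold there, with a smallest edgeR adjusted p of 0.644 at the low dose and of 0.187 (Aif1) at the high dose. For Aif1 the log2 fold changes in that fit were 0.91 (SE 0.22) and 0.95 (SE 0.22), and for Tyrobp 0.78 (SE 0.20) and 0.86 (SE 0.20). The exceptions were P2ry12 and Ptprc at the low dose and Cx3cr1 and P2ry12 at the high dose. As the labels do not name the letters as a pairing, and the 10 genes share cultures and reads of the same cells, these 8 are not independent results. Culture G held the highest untreated level of the 10 genes except for Cx3cr1 and Csf1r. Leaving it out thus by itself raises the fold changes of most of them, so the unadjusted p-values of this fit are a description.

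Within letter sets, the number of the 10 genes that were higher at a dose depended on the set. In low dose vs. untreated cultures 9 of 10 genes were higher in the first set (A-B-C), 2 in the set of G, 10 in the set of M and 8 in the set of P, with median differences in log2(CPM + 1) of 0.41, -1.11, 1.14 and 0.21. In high dose vs. untreated cultures 10, 5, 10 and 6 genes were higher in these sets, with medians of 0.63, -0.31, 0.61 and 0.16. In high dose vs. low dose cultures 9, 10, 0 and 4 genes were higher, with medians of 0.29, 0.48, -0.55 and -0.05. Beside these, 48.9% to 51.2% of all kept genes were higher in each set and comparison.

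Csf1r was the only gene of the 10 that was higher at the low dose than untreated in all 4 sets, by 0.56, 0.55, 1.05 and 0.11 in log2(CPM + 1), as were 4.06% of all kept genes. Aif1 and Itgam were higher at the high dose than untreated in all 4 sets, as were 5.22% of all kept genes. The differences of Aif1 were 0.77, 0.38, 0.88 and 0.43, and those of Itgam 0.64, 0.24, 0.62 and 0.29. In the summed level, the low dose culture held 1.24, 0.457, 2.39 and 1.31 times the untreated culture in the sets of A, G, M and P, and the high dose culture 1.46, 0.648, 1.63 and 1.44 times. Only G-H-I, whose untreated culture is G, had ratios below 1.

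**Figure D4:**
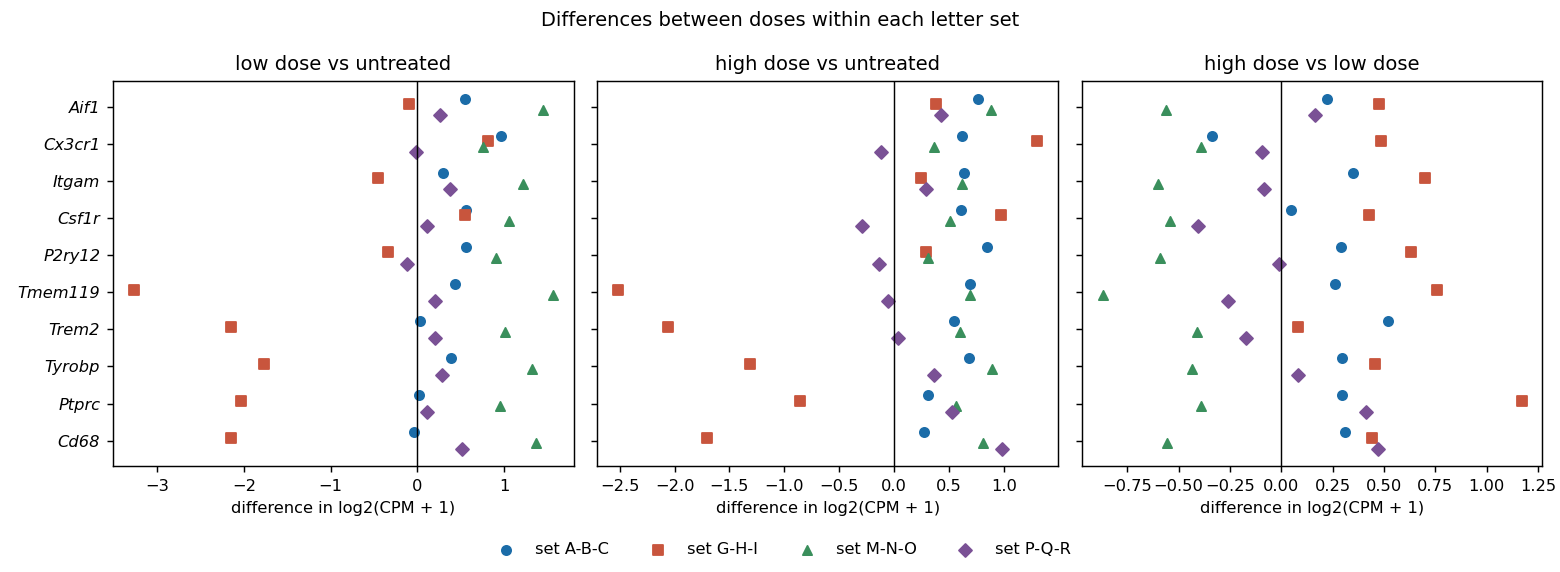
Difference in log2(CPM + 1) between the cultures of a letter set (x axis) for each gene (y axis) in the 3 comparisons of doses, with 1 point per set. For low and high dose vs. untreated the points of A-B-C and M-N-O lie at or above 0 with the exception of Cd68 in A-B-C at the low dose (-0.04), and those of G-H-I fall to -3.27 for Tmem119.

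The labelled cell types were checked against their markers, and further microglial genes were read beside the 10. Markers of neurons, astrocytes, OPCs and oligodendrocytes were present in all cultures, with neuronal markers low in G. Astrocyte markers summed to 8286 to 11794 CPM in P, Q and R and 2147 to 7969 CPM in the other 9. OPC markers summed to 1238 to 1254 CPM in P, Q and R and 267 to 1287 CPM in the others, and oligodendrocyte markers to 18220.3 to 21672 CPM and 3028 to 26057 CPM. Of 22 other genes of microglia, 20 were kept, and 18 were lower in P, Q and R than in all other cultures, as were 927 of the 12271 kept genes (7.55%). The same share stands beside the counts of the lists below. As P, Q and R were set apart with their low levels of microglial genes known, all these counts are a description. C1qc and C1qb, subunits of complement C1q, were at 10.4 to 14.4 and 12.7 to 16.5 CPM in P, Q and R and at 107 to 452 and 84.5 to 420.5 CPM in the other 9.

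Of 8 transcription factors of microglia and myeloid cells, 6 were lower in P, Q and R than in all other cultures. Sall1, a factor that defines microglia among macrophages and is also expressed by other neural cells, was at 40.9 to 45.5 CPM in P, Q and R and at 26.0 to 41.6 CPM in the others. Of 10 listed genes of TREM2-TYROBP and CSF1R signalling that were measured, 7 were lower in P, Q and R, with the phosphatase Ptpn6 at 1.08 to 2.41 CPM there and at 7.32 to 36.6 CPM in the others. The kinase Syk, which docks on TYROBP, was not among the 7, at 3.47 to 4.66 CPM in P, Q and R and at 4.60 to 35.2 CPM in the others. Of 8 listed ligands and support factors, 2 were lower there. Apoe, a lipid carrier that TREM2 binds, was at 1053 to 1199 CPM against 1409 to 5112 CPM. Tgfb1 was at 1.91 to 2.61 CPM against 5.31 to 34.8 CPM. Which cells made these 2 was not tested.

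Of 9 measured genes of reactive microglia, 3 were lower in P, Q and R. Gpnmb and Cd9 were not, with Gpnmb at 2196 to 2770 CPM there and at 337 to 4350.0 CPM in the others. Cd9 was higher in P, Q and R than in all other cultures, at 639 to 719 CPM against 339 to 589 CPM. Both genes are also expressed by glia of other kinds. Markers of border macrophages and monocytes were present, and their sum, like that of the 10 genes, was lowest in P, Q and R. All 7 that were measured were kept, 6 were lower in P, Q and R than in all other cultures, and their sum was 12.97 to 17.6 CPM there and 68.0 to 411 CPM in the other 9. Cd163, a haemoglobin scavenger receptor, was at 0.998 to 2.82 CPM in P, Q and R and at 28.3 to 129 CPM in the others, and Mrc1, the mannose receptor CD206, at 3.23 to 4.07 and at 9.32 to 144 CPM. Their highest sum was in N, which was also the highest in 5 of the 10 genes. In G the sum of these markers was 242 CPM, although the 10 genes summed there to 605 CPM, near the 614 CPM of N. The parts of microglia and of other macrophages in the 10 genes cannot be told apart here.

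Lymphocyte markers were at or near 0. Of 9 in the table none passed the filter, 7 never had more than 3 counts in a culture, and their sum was at most 1.95 CPM, in G. Of 6 neutrophil markers 2 passed the filter, and their sum was 0.582 to 8.06 CPM. Endothelial markers summed to 61.8 CPM in G and to 7.26 to 16.0 CPM in the other 11 cultures.

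**Figure D5:**
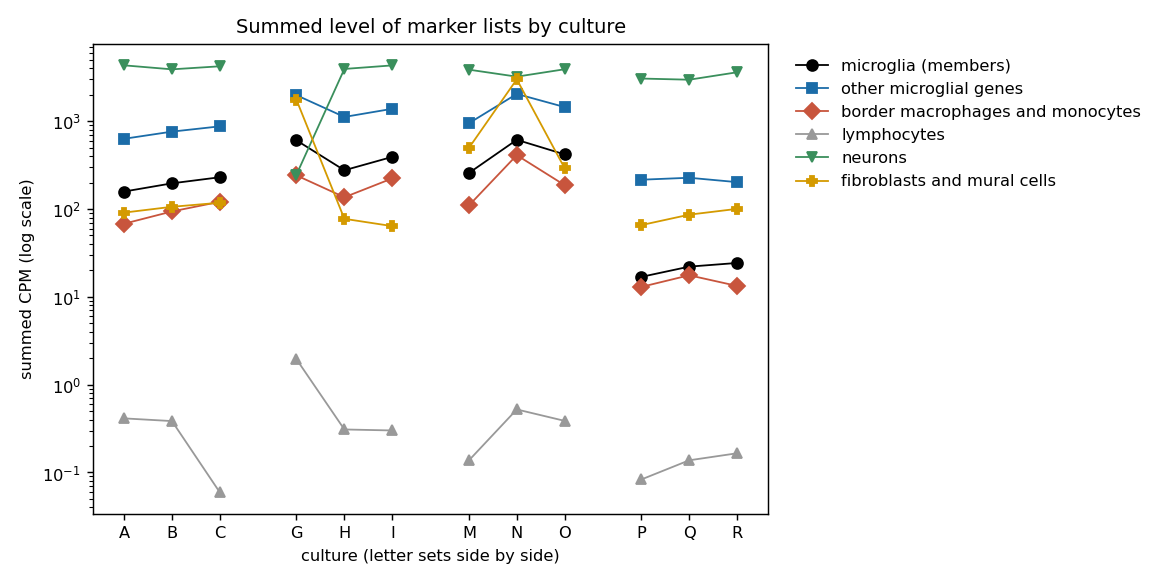
Summed CPM of the 10 genes and of 5 marker lists (y axis, log scale) in each culture (x axis, letter sets side by side), with 1 point per culture. The sums of other microglial genes, of border macrophage markers and of the 10 genes are lowest in P, Q and R. Neuronal markers are lowest in G, fibroblast and mural cell markers peak in G and N, and lymphocyte markers stay at or below 1.95 CPM.

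None of the genes in these lists was called in any comparison of doses by edgeR or DESeq2. For edgeR the limit of the test given above holds here too. The median log2 fold changes of the kept genes in low and high dose vs. untreated were 0.79 and 0.86 for the other microglial genes (20 and 18 of 20 above 0), 0.57 and 0.57 for the transcription factors (7 and 6 of 8), and 0.82 and 1.05 for the signalling genes (10 and 9 of 10). They were 1.01 and 1.11 for border macrophages and monocytes (7 and 7 of 7), and 0.21 and 0.23 for the ligands (6 and 7 of 8). For the reactive microglial genes they were 0.02 and 0.01 (5 and 6 of 9 above 0), and -0.27 and -0.28 with the replicate block. Lists of other cell types had medians of 0.40 and 0.55 for neurons (10 and 11 of 11 above 0), -0.25 and -0.54 for astrocytes (0 and 0 of 8), and 0.97 and -0.37 for fibroblasts and mural cells (6 and 1 of 6), and their part in the other values was not tested. With the replicate block the medians of the first 5 lists were 0.23 and 0.21, -0.05 and 0.12, 0.03 and 0.11, 0.38 and 0.64, and -0.01 and 0.09. At an unadjusted p under 0.05 none of the genes of the microglial, transcription factor, signalling and border macrophage lists was found in low or high dose vs. untreated.

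The genes whose profile over the 12 cultures was most like the mean profile of the 10 were looked up among the other kept genes, by the root mean square (RMS) difference of centred log2(CPM + 1) values. The nearest was Tlr7, an endosomal receptor for single-stranded RNA, with an RMS difference of 0.139, followed by Nckap1l (0.212), a subunit of the WAVE actin complex of blood cells, and Myo1f (0.216), an unconventional myosin. Vav1, Ptpn6, Cyth4, Arhgap30, Acp5 and Slco2b1 were also among the 10 nearest, at 0.217 to 0.252, and 5 of the 10 nearest were in the lists above. The median over all kept genes was 1.36. The 10 identity genes themselves differed from their own mean profile by 0.256 (Ptprc), 0.319 (Tyrobp) and 0.406 (Trem2) at the nearest and by 0.797 (Cx3cr1) and 0.851 (P2ry12) at the farthest. Tlr7 was at 0.481 to 0.665 CPM in P, Q and R and at 18.0 CPM in G and 16.5 CPM in N. All genes were read in the same 12 libraries, which differ in depth and cell make-up, so likeness of profile is given as a description.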

How the data were processed

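Poly(A)-selected RNA of 12 cultures was sequenced. The authors used STAR for alignment (build rn6) and featureCounts for counting, with no strand setting given in the sources used here, so reads of overlapping antisense genes cannot be told apart. The deposited values are these counts, whole numbers per gene and culture, before any normalization. All 17337 rows carried a gene symbol, and 2226 had no count. The 10 genes, the marker lists and the cultures shown apart were chosen with earlier results of these data known.

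Counts were scaled by TMM and filtered with filterByExpr in edgeR 4.0.16 (R 4.3.3), which kept 12271 genes. As the study names RUVseq and edgeR without the number of factors, 1 RUVs factor was estimated from the replicates of each dose, with the formula rewritten in R. It held 41.0% of the variation within doses. With 3 doses and this factor as terms, edgeR's quasi-likelihood model was fitted over all 12 cultures with Benjamini-Hochberg adjustment over all kept genes. The procedure was tested on simulated counts, which were drawn without differences between letter sets. That test therefore does not show how the procedure performs on cultures that differ between sets. Standard errors were derived from the quasi-likelihood statistics. CPM use TMM-scaled totals.

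Named genes were the 10, then 2 to 4 of each list by highest mean CPM, and the 10 kept genes nearest in profile. Csf1, Il34 and Tgfb1 were named outside this rule, Tgfb1 for its lower values in P, Q and R. The values of some genes that this rule would name are not reported here. Alternatives were no factor, 2 factors, a replicate block by letter sets (with and without culture G), DESeq2 1.42.0, its size factors in edgeR, no filter, no set P-Q-R, and each culture left out in turn. For the letter sets, variation was split by a sum of squares over sets and doses. Transcript lengths, promoter and protein sequences were not used here, and no gene positions are printed since the reference at hand is of another build than rn6.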

Additional observations from a re-analysis of the deposited data

Results flagged for a closer look

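In 33 groups of 4 cultures (the 10 genes and their sum at each dose), the highest or lowest culture was compared with its nearest neighbour by Dixon's gap test, in which chance marks about 1 group in 20. Of the 33 groups 2 were marked, which is near that rate, and both were of Tmem119. In untreated culture G it was at 17.6 CPM, while the other 3 untreated cultures lay between 0.166 and 3.02 CPM. In low dose culture N it was at 10.8 CPM, while the other 3 low dose cultures lay between 0.344 and 1.62 CPM. These 2 cultures also had the highest summed fibroblast and mural cell markers, and the part of those cells in the Tmem119 level was not tested.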

How the results depend on the processing

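None of the 10 genes was called under any alternative, and the mean summed CPM of each dose moved by less than the SD of that dose's own cultures. All values below are log2 fold changes of edgeR unless named otherwise, none was past the adjusted threshold, and the cause of each turn was not tested. Over all genes, against 0 calls in the reported test, DESeq2 called 3 between high dose and untreated and 1 between both doses, 2 factors gave 1 and 1, and the block without culture G gave 15 and 14. Depth limits Cx3cr1 and Tmem119 most, with 0 to 5 counts in P, Q and R, and intervals from counts cover counting error only. The letter-set replicate block is not a pairing given by the labels. Without the factor, low dose vs. untreated gave -0.66 for Tmem119, -0.77 for Trem2, -0.24 for Tyrobp, -0.42 for Ptprc and -0.52 for Cd68, high dose vs. untreated gave -1.13, -0.82, -0.26, -0.18 and -0.58 for the same genes, and high vs. low dose gave a median of -0.050, with Itgam at -0.017, Trem2 at -0.043, Tyrobp at -0.014 and Cd68 at -0.058. With the replicate block, low dose vs. untreated gave -0.40 for Tmem119, -0.36 for Trem2, -0.27 for Ptprc and -0.16 for Cd68, high dose vs. untreated gave -0.76 for Tmem119, -0.39 for Trem2 and -0.044 for Cd68, and high vs. low dose gave 0.052 for Aif1 and -0.031 for Trem2. With the block and without culture G, high vs. low dose gave 0.043 for Aif1 and -0.011 for Trem2. With 2 factors it gave a median of -0.051, with Itgam at -0.024, Trem2 at -0.17 and Tyrobp at -0.031, and DESeq2 gave 0.0031 for Aif1. With each culture left out in turn, low dose vs. untreated ranged from -0.31 to 1.40 for Tmem119, from -0.17 to 0.74 for Trem2, from -0.26 to 0.66 for Ptprc and from -0.064 to 0.89 for Cd68, and high dose vs. untreated from -0.13 to 0.79 for Trem2 and from -0.049 to 0.91 for Cd68. High vs. low dose ranged from -0.33 to 0.53 for the median, from -0.41 to 0.56 for Aif1, from -0.64 to 0.50 for Cx3cr1, from -0.33 to 0.71 for Itgam, from -0.45 to 0.45 for Csf1r, from -0.36 to 0.63 for P2ry12, from -0.59 to 0.92 for Tmem119, from -0.32 to 0.41 for Trem2, from -0.32 to 0.47 for Tyrobp, from -0.053 to 0.86 for Ptprc and from -0.34 to 0.45 for Cd68. Between both doses the negative ends came most often without low dose culture Q and the positive ends without low dose culture N.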
